A study of Homo sapiens with 6 samples.

Results

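The genes described here encode enzymes and helper proteins of prostaglandin and leukotriene synthesis. A list of 10 symbols was looked up in a deposited RNA-Seq count table of 13244 genes, and 9 of them were found. PTGDS and DPEP2 were chosen on their large increase between the groups of this same table, with no stated cutoff, so their change is given as a description and without a test. The other 7 found were chosen by function, though with earlier results of these data known: PLA2G4A, PTGS1, PTGES2, PTGES3, ALOX5AP, LTA4H and LTC4S. The remaining symbol, ALOX5, was not analysed here.

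The counts came from MOLM14, an established human acute myeloid leukemia (AML) cell line that carries an internal tandem duplication in the receptor kinase FLT3 (genotype FLT3 ITD). HSN748 is a FLT3 inhibitor, and the comparison asks how it alters transcription in FLT3-mutated AML cells. There were 3 cultures with 2 nM HSN748 (replicates 7, 8 and 9) and 3 with DMSO, the solvent control (replicates 1, 2 and 3), each for 24 hours and grown in RPMI with serum. Every culture was of the same line and genotype, and the labels give treatment as the only difference between the groups, while the study's methods call the triplicates biologically independent.

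Both families of lipid mediators are made from arachidonic acid, which phospholipase A2 enzymes release from membrane phospholipids. Cyclooxygenases convert it to prostaglandin H, from which separate synthases make the D and E prostaglandins and thromboxane. The 5-lipoxygenase, with its activating protein, converts it to leukotriene A, which is then hydrolysed or joined to glutathione. Leukotrienes are made mainly by myeloid cells.

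Library totals ranged from 35277785 to 59279430 counts. Levels are given as CPM, a gene's deposited count adjusted for library size by TMM, and where genes are compared with each other as RPKM, that CPM value per kilobase of the deposited gene model. Changes are log2 of HSN748 over DMSO with a standard error (SE), and each adjusted p (Benjamini-Hochberg, over 13084 genes) comes from the quasi-likelihood test of edgeR. A gene is said to have risen or fallen at an adjusted p under 0.05. The p-values weigh the group difference against the spread between these cultures, which the test estimates partly from all genes together. For 1 gene with 3 cultures a group the smallest exact permutation p is 0.1, so smaller values rest on the model of the test. Log2(CPM + 1) correlated at 0.991 to 0.9969 within DMSO, 0.9963 to 0.9969 within HSN748 and 0.9173 to 0.9278 between the groups. Of 13 listed myeloid markers 12 were in the table, and these summed to 1666 to 1720 CPM in DMSO and 3460 to 3659 CPM in HSN748. LYZ and FLT3 made up most of this sum. Among the markers FLT3, SPI1 and LYZ rose and MPO fell. CSF1R had the largest log2 fold change of them, 4.37 (adjusted p = 2.36e-08, SE 0.115). Of the 12 markers, 8 rose (66.67%), 2 fell (16.67%) and 2 did not pass, against 36.6% higher and 36.5% lower among all tested genes. These markers were chosen with earlier results of these data known, and their part in the changes of the enzyme genes was not tested.

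To show the stretch of DNA around the start of genes that moved by different amounts and in different directions, 4 promoters are printed, from 250 bases before to 50 after the RefSeq start site on GRCh38.p14. PTGDS had the largest log2 fold change of the 9 genes, ALOX5AP and LTC4S rose by similar amounts, and PTGES2 fell. RefSeq promoters were matched for 8 of the 9 genes, and none was matched for DPEP2. The RefSeq start was the start of the deposited model for PTGDS and LTC4S, and it lay 7 bases from it for ALOX5AP and 22 bases for PTGES2. Sequences read 5′ to 3′ on the gene's strand, and capitals mark matches to the letters searched on both strands.
PTGDS, chr9:136977254-136977553, plus strand: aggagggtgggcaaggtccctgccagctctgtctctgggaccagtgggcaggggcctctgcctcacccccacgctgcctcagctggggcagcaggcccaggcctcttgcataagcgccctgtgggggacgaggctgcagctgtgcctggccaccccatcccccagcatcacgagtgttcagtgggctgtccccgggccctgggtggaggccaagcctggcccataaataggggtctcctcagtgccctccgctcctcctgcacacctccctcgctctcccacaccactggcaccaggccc
ALOX5AP, chr13:30713235-30713534, plus strand: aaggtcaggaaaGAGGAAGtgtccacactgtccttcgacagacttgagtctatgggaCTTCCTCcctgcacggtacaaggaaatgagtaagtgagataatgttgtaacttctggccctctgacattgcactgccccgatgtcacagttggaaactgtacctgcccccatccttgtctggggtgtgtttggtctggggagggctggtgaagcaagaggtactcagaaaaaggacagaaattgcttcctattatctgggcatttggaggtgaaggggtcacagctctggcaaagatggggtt
LTC4S, chr5:179793736-179794035, plus strand: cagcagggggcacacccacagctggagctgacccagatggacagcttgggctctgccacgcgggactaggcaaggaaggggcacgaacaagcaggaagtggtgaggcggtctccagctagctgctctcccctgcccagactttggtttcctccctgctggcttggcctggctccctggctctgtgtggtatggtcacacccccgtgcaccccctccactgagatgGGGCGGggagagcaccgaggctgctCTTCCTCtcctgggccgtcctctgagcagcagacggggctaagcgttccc
PTGES2, chr9:128128391-128128690, minus strand: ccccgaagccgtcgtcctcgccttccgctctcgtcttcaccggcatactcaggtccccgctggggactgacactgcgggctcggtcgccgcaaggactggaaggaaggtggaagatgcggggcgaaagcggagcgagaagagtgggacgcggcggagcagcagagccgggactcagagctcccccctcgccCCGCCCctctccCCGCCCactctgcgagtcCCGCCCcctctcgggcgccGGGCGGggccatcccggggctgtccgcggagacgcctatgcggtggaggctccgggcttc

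The GC box was searched as GGGCGG. The letters CACGTG stood for the E-box that MYC and related factors recognise. AP-1 was searched as TGANTCA, and the site of FOXO factors, which FLT3 signaling keeps out of the nucleus, as GTAAACA. The site of STAT factors, which act downstream of FLT3, was searched as TTCNNNGAA. An ETS motif of the PU.1 type was searched as GAGGAAG, and the TATA box was searched as TATAAA. The PTGDS window held none of the 7. The ALOX5AP window held GAGGAAG at 2 places, positions -238 and -193 relative to the start site, and the LTC4S window held it at position 1 and a GC box at position -25. GAGGAAG occurred in 13.6% of 35116 RefSeq promoters of this length. RefSeq gave 3 windows for PTGES2. The one printed, nearest to the start of the deposited model, held 4 GC boxes, and the other windows held 1 each, 1 of them with CACGTG at position -128 as well. The window of PTGES3 held 4 GC boxes. At least 1 GC box occurred in 44.95% of promoters and 4 or more in 9.064%. The GC content was 68.67% for PTGDS, 50.33% for ALOX5AP, 65.33% for LTC4S and 72.33% for PTGES2, against a median of 58.67% over all promoters. These matches are descriptions of the windows and do not show that a factor was bound.

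Of the 7 genes chosen by function, 4 rose in HSN748-treated cells (PTGS1, ALOX5AP, LTA4H and LTC4S), 2 fell (PTGES2 and PTGES3) and PLA2G4A did not pass the test. Across all tested genes, 36.6% rose and 36.5% fell, so shares of 57.14% and 28.57% among 7 genes have to be read against a background in which most genes changed. The median log2 fold change of the 7 was 0.66, against 0.01 for all genes. Since the 7 were chosen with earlier results of these data known, these comparisons are descriptions. The DMSO and HSN748 cultures did not overlap in CPM for any of the 7 genes, which was also the case for 75.4% of all tested genes. PTGDS and DPEP2 did not overlap either, but they were chosen on their increase. A count gives a gene's share of the RNA sequenced, and in bulk cultures fewer cells expressing a gene and less of its RNA per cell cannot be told apart.

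**Figure D1:**
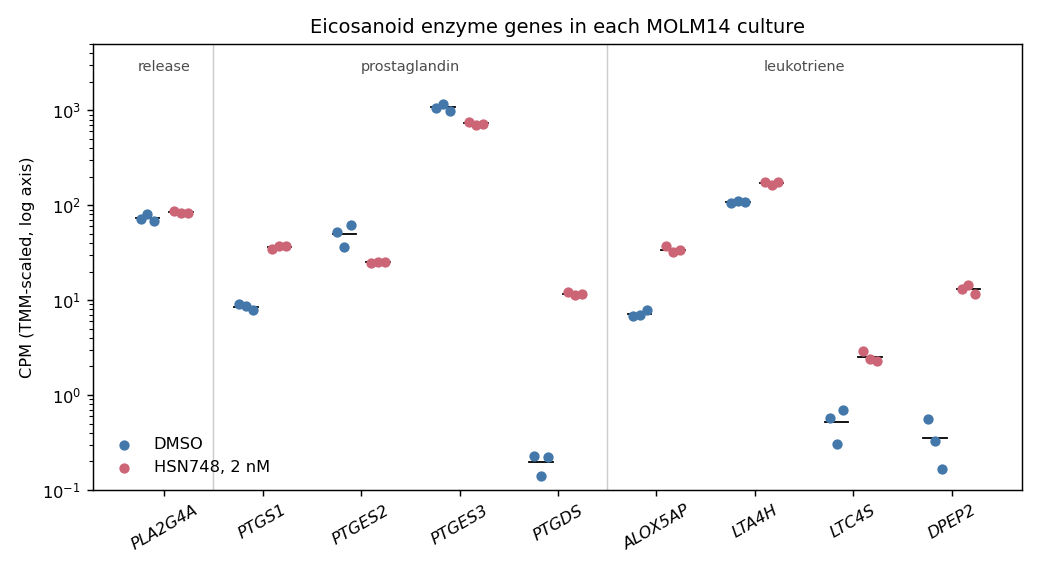
CPM of the 9 genes on a log axis in each of 3 DMSO and 3 HSN748 cultures (points) with group means (lines), ordered by role. PTGDS went from 0.142 to 0.226 CPM in DMSO up to 11.2 to 12.2 CPM in HSN748, while PTGES2 and PTGES3 had all 3 HSN748 cultures below the DMSO cultures.

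PLA2G4A had the smallest difference of the 9 genes. It encodes the cytosolic phospholipase A2 that releases arachidonic acid from membranes and lies on chromosome 1 from 186828900 to 186988981, on the plus strand. It stood at 72.2, 81.1 and 68.0 CPM in DMSO replicates 1, 2 and 3 and at 86.3, 83.6 and 82.9 CPM in HSN748 replicates 7, 8 and 9. The lowest HSN748 culture was just above the highest DMSO culture. The log2 fold change was 0.19 (adjusted p = 0.0577, SE 0.08), which did not pass. Its call depended on the scaling, with a log2 fold change of 0.40 under upper-quartile factors (adjusted p = 0.00145). It also depended on DMSO replicate 2, the highest DMSO culture, without which the log2 fold change was 0.26 (adjusted p = 0.00764).

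The genes of the prostaglandin arm moved in both directions. PTGS1, the constitutive cyclooxygenase, rose about as much as ALOX5AP. It lies on chromosome 9 from 122370533 to 122395703, on the plus strand. Its level was 9.02, 8.73 and 7.94 CPM in the DMSO cultures and 34.5, 37.2 and 37.3 CPM in the HSN748 cultures. The cultures of each group lay close together and far from the other group. The mean was 8.56 ± 0.560 CPM in DMSO (SD, n = 3) and 36.3 ± 1.58 CPM in HSN748 (SD, n = 3), which gives a log2 fold change of 2.08 (adjusted p = 1.74e-07, SE 0.09). PTGS2, the inducible cyclooxygenase, stood at 5.29, 5.15 and 4.03 CPM in DMSO and 3.64, 5.05 and 3.43 CPM in HSN748, with overlapping groups and a log2 fold change of -0.27 (adjusted p = 0.222, SE 0.19). Within each library the RPKM of PTGS1 was 1.35, 1.34 and 1.56 times that of PTGS2 in DMSO and 7.50, 5.83 and 8.61 times in HSN748. The cyclooxygenase transcripts were thus closer to each other in level in each DMSO culture than in the HSN748 cultures.

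PTGDS, the lipocalin-type prostaglandin D synthase, was close to the detection limit in DMSO and well detected in HSN748. It lies on chromosome 9 from 136977504 to 136981742, on the plus strand, in a model of 7 exon blocks and 812 bases. The deposited counts were 13, 6 and 8 in DMSO and 524, 423 and 579 in HSN748. These correspond to 0.226, 0.142 and 0.221 CPM and 12.2, 11.2 and 11.7 CPM. Every HSN748 culture was far above every DMSO culture, and DMSO replicate 2 was the lowest. The mean was 0.196 ± 0.0471 CPM in DMSO (SD, n = 3) and 11.7 ± 0.498 CPM in HSN748 (SD, n = 3), which gives a ratio of 59.8 and a log2 fold change of 5.87 (SE 0.18). The low DMSO counts set the precision of this ratio, and leaving out 1 library at a time gave log2 fold changes from 5.70 to 6.01. Its RPKM was at percentile 8.57 of all genes in DMSO and percentile 68.4 in HSN748. In GENCODE 29 the exons of PTGDS share 634 bases with AL807752.7, a protein-coding model on the same strand, and reads from these cannot be told apart.

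Both measured genes named for prostaglandin E synthesis fell, as did 36.5% of all tested genes. PTGES2, the membrane-associated prostaglandin E synthase, lies on chromosome 9 from 128120693 to 128128462, on the minus strand. It measured 52.2, 36.3 and 61.3 CPM in DMSO replicates 1, 2 and 3 and 24.8, 25.03 and 25.03 CPM in HSN748 replicates 7, 8 and 9. The DMSO cultures were widely spread, with replicate 2 lowest, and the HSN748 cultures were nearly equal, with coefficients of variation of 25.4% and 0.498%. Its log2 fold change was -1.0 (adjusted p = 0.000596, SE 0.17), and it ranged from -1.18 to -0.83 when 1 library was left out. PTGES3, the cytosolic prostaglandin E synthase that is also a co-chaperone of HSP90, lies on chromosome 12 from 56663341 to 56688408, on the minus strand. It stood at 1056, 1180 and 991 CPM in DMSO and 760.3, 709 and 712 CPM in HSN748. The groups did not overlap, and the log2 fold change was -0.57 (adjusted p = 0.000373, SE 0.09). GENCODE 29 names 5 pseudogenes of PTGES3, none of them in the table, so its counts are uncertain to the extent that reads were shared with these copies.

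PTGES3 dominated the arm. The 4 prostaglandin genes summed to 1134 ± 83.9 CPM in DMSO (SD, n = 3) and 800.0 ± 27.6 CPM in HSN748 (SD, n = 3). Without PTGES3 the sum was 58.7 ± 12.4 CPM in DMSO (SD, n = 3) and 73.0 ± 1.29 CPM in HSN748 (SD, n = 3). That second sum includes PTGDS, which was chosen on its increase. PTGS1 and PTGES2 alone summed to 58.5 ± 12.4 CPM in DMSO (SD, n = 3) and 61.3 ± 1.71 CPM in HSN748 (SD, n = 3), with all 3 HSN748 sums inside the DMSO range. As RPKM their sum was 26.0 ± 6.15 in DMSO (SD, n = 3) and 18.6 ± 0.339 in HSN748 (SD, n = 3). All 3 HSN748 sums then lay below the DMSO range, so the comparison depends on the scale. Per library, the RPKM of PTGDS was 0.0109, 0.00981 and 0.00904 times that of PTGES2 in DMSO and 1.24, 1.13 and 1.17 times in HSN748. PTGDS thus lay below PTGES2 in each DMSO culture and above it in each HSN748 culture. Since PTGDS was chosen on its increase, this crossing is a description. PTGES3, the other E synthase gene, stayed far above PTGDS, at 214 RPKM against 14.4 RPKM in HSN748.

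The 4 leukotriene genes among the 9 were all higher in HSN748, DPEP2 by the rule that chose it. Other leukotriene genes of the pathway lists moved in both directions and are given below. ALOX5AP encodes the 5-lipoxygenase-activating protein, a membrane protein that presents arachidonic acid to the 5-lipoxygenase, and lies on chromosome 13 from 30713478 to 30764428, on the plus strand. It was at 6.84, 6.94 and 7.83 CPM in the DMSO cultures and 36.8, 32.1 and 33.5 CPM in the HSN748 cultures. No culture of either group came near the other group. The mean was 7.20 ± 0.547 CPM in DMSO (SD, n = 3) and 34.1 ± 2.44 CPM in HSN748 (SD, n = 3), which gives a log2 fold change of 2.25 (adjusted p = 1.97e-07, SE 0.10). The promoter printed above for this gene is the one with GAGGAAG at 2 places.

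LTA4H, the hydrolase that turns leukotriene A into leukotriene B, was the most abundant leukotriene gene per length in both groups and rose least of the 4. It lies on chromosome 12 from 96000753 to 96043520, on the minus strand, and its exons share 121 and 582 bases with 2 antisense models of GENCODE 29. Its level was 107, 112 and 108 CPM in DMSO and 177, 162 and 178 CPM in HSN748. The groups were clearly apart, with a log2 fold change of 0.66 (adjusted p = 2.74e-05, SE 0.07). Whether the counting used strand is not given in the sources used here.

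LTC4S, the synthase that joins leukotriene A to glutathione, rose from a low level. It lies on chromosome 5 from 179793986 to 179796647, on the plus strand. The counts were 33, 13 and 25 in DMSO and 124, 91 and 112 in HSN748, which is 0.573, 0.307 and 0.689 CPM and 2.90, 2.42 and 2.26 CPM. The lowest HSN748 culture was well above the highest DMSO culture, and DMSO replicate 2 was again the lowest. The log2 fold change was 2.27 (adjusted p = 8.52e-05, SE 0.28). The RPKM of LTC4S was 0.0168, 0.00860 and 0.0200 times that of LTA4H in DMSO and 0.0513, 0.0469 and 0.0398 times in HSN748. The deposited LTC4S model also lay on another scaffold, so its level is uncertain to the extent that reads were shared with that copy. By these counts the LTC4S transcript remained far below that of LTA4H in every library, though less so in HSN748. This does not extend to every glutathione transferase of the pathway lists. MGST2, named here after its values were seen, averaged 50.7 RPKM in DMSO and 42.7 RPKM in HSN748 and did not pass.

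DPEP2, a membrane-bound dipeptidase of the family that cleaves leukotriene D to leukotriene E, lies on chromosome 16 from 67987390 to 68000619, on the minus strand. Its counts were 32, 14 and 6 in DMSO and 561, 539 and 574 in HSN748. In CPM these were 0.555, 0.330 and 0.165 and 13.1, 14.3 and 11.6. The DMSO cultures differed several-fold from each other, with replicate 1 highest and replicate 3 lowest, while the HSN748 cultures were close together. The means were 0.350 ± 0.196 CPM in DMSO (SD, n = 3) and 13.0 ± 1.37 CPM in HSN748 (SD, n = 3), a ratio of 37.1 and a log2 fold change of 5.11 (SE 0.27). It ranged from 4.82 to 5.66 when 1 library was left out, the highest value without DMSO replicate 1. In GENCODE 29 the exons of DPEP2 share 117 bases with DUS2 on the opposite strand, though their deposited models did not overlap. DUS2 fell by 1.15 on the log2 scale (adjusted p = 5.30e-05, SE 0.13).

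The 4 leukotriene genes summed to 116.8 ± 2.39 CPM in DMSO (SD, n = 3) and 221.6 ± 10.1 CPM in HSN748 (SD, n = 3), a sum that includes DPEP2. LTA4H made up most of it in both groups. The RPKM of ALOX5AP was 0.127, 0.123 and 0.143 times that of LTA4H in DMSO and 0.412, 0.392 and 0.372 times in HSN748. The ratio lay above the range of the DMSO cultures in all 3 HSN748 cultures.

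The order of the genes by RPKM changed between the groups. In DMSO, PTGES3 led with 317 RPKM, followed by LTA4H with 43.4 RPKM. PLA2G4A with 25.2 RPKM and PTGES2 with 24.5 RPKM overlapped between cultures and could not be ordered. Below them came ALOX5AP at 5.67 RPKM, PTGS1 at 1.504 RPKM and LTC4S at 0.653 RPKM, and lowest were PTGDS at 0.241 RPKM and DPEP2 at 0.136 RPKM, which also overlapped. In HSN748, PTGES3 with 214 RPKM and LTA4H with 68.6 RPKM kept these places, and PLA2G4A with 28.8 RPKM overlapped with ALOX5AP at 26.9 RPKM. PTGDS came next at 14.4 RPKM, then PTGES2 at 12.2 RPKM, PTGS1 at 6.38 RPKM, DPEP2 at 5.06 RPKM and LTC4S at 3.15 RPKM. The deposited model of LTC4S also lay on another scaffold, and the 801 bases of the chromosome copy were used for its RPKM. Its place in this order is uncertain to the extent that reads were shared with the other copy.

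**Figure D2:**
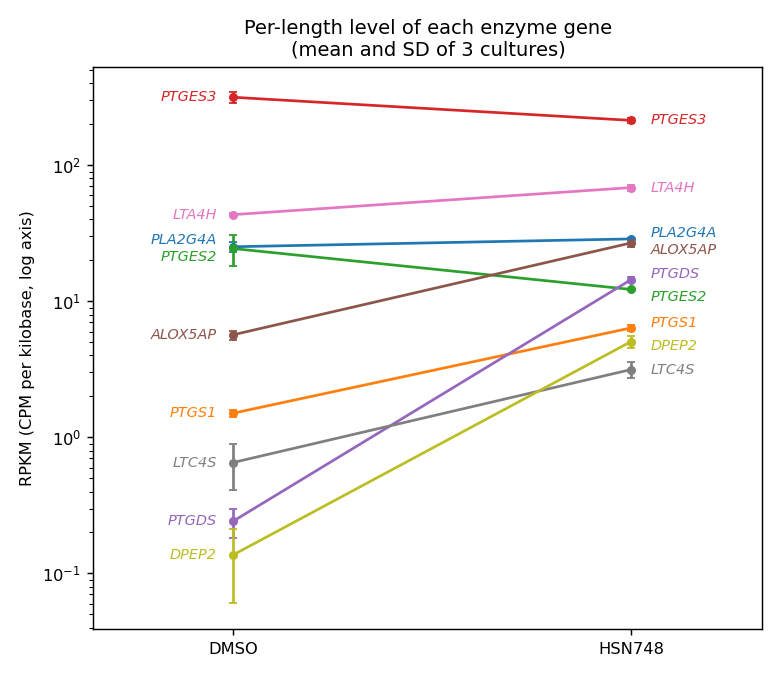
Mean RPKM of the 9 genes on a log axis in DMSO and HSN748, with bars of 1 SD over 3 cultures. PTGDS crossed from 0.241 RPKM, near DPEP2 at the bottom, to 14.4 RPKM, above PTGES2, while PTGES3 and LTA4H stayed at the top.

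Other genes of the pathway were taken from lists of 97 symbols, of which 46 were in the table and 45 were tested. Among them 24 rose, 13 fell and 8 did not pass, with a median log2 fold change of 0.47 against 0.01 for all genes. Shares of 53.33% higher and 28.89% lower compare with 36.6% and 36.5% of all tested genes. The lists were drawn up with earlier results of these data known, so these comparisons are descriptions. The counts for each list below have to be read against the same background.

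Of the genes that release arachidonic acid or related lipids, 10 of 11 tested rose, 0 fell and 1 did not pass, with a median of 1.04. FAAH, the hydrolase that frees arachidonic acid from anandamide, had 14.1, 10.8 and 12.4 CPM in DMSO and 34.6, 34.6 and 34.5 CPM in HSN748, a log2 fold change of 1.47 (adjusted p = 3.27e-06, SE 0.11). The lysosomal phospholipase PLA2G15 rose by 1.37 (adjusted p = 1.46e-05, SE 0.13) and the calcium-independent phospholipase PLA2G6 by 1.04 (adjusted p = 7.16e-05, SE 0.12) on the log2 scale. ANXA1, which encodes annexin A1, known as an inhibitor of phospholipase A2, rose as well by 0.67 (adjusted p = 8.69e-05, SE 0.08). The list therefore holds a gene of the opposite role among those that rose.

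Of the genes that supply arachidonic acid or return it to membranes, 6 of 9 tested fell, 1 rose and 2 did not pass, with a median of -0.73. FADS2 and FADS1, the desaturases that make arachidonic acid from dietary precursors, changed most. FADS2 went from 50.8, 46.0 and 52.3 CPM in DMSO to 7.54, 8.77 and 8.70 CPM in HSN748, a log2 fold change of -2.57 (adjusted p = 9.40e-08, SE 0.10). FADS1 went from 34.7, 37.5 and 34.3 CPM to 8.05, 6.62 and 7.51 CPM, a log2 fold change of -2.26 (adjusted p = 2.01e-07, SE 0.10). For both genes the groups were far apart. ACSL3 fell by 1.30 (adjusted p = 7.70e-06, SE 0.11) and ACSL1 by 0.73 (adjusted p = 1.45e-05, SE 0.07) on the log2 scale, both enzymes that couple fatty acids to coenzyme A. LPCAT2, which transfers acyl groups to lysophospholipids, rose by 0.53 (adjusted p = 0.00129, SE 0.10).

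Of 4 other prostanoid synthesis genes, 1 rose, 2 fell and PTGS2 did not pass, with a median of -0.35. TBXAS1, the thromboxane synthase, rose by 0.59 (adjusted p = 0.00026, SE 0.09) on the log2 scale. CBR1, a carbonyl reductase that can turn prostaglandin E into prostaglandin F, fell by 0.77 (adjusted p = 0.000316, SE 0.12). The related CBR3 fell by 0.44 (adjusted p = 0.0484, SE 0.17), a call that was lost under 9 of 14 alternatives. Of 6 other leukotriene and lipoxygenase genes, 3 rose, 2 fell and 1 did not pass, with a median of 0.11. GGT5, a gamma-glutamyl transferase that turns leukotriene C into leukotriene D, went from 1.21, 0.496 and 1.32 CPM in DMSO to 0.117, 0.0797 and 0.121 CPM in HSN748, a log2 fold change of -3.20 (adjusted p = 0.000352, SE 0.49). GGT1, a second enzyme of this kind and chosen here after its values were seen, was more abundant and rose, from 19.3, 16.9 and 23.3 CPM in DMSO to 25.8, 26.6 and 29.5 CPM in HSN748, a log2 fold change of 0.46 (adjusted p = 0.00867, SE 0.12). The transferases of this step thus moved in opposite directions, and their counts are uncertain where reads are shared with related copies. MGST1 and MGST3, microsomal glutathione transferases, rose by 0.55 (adjusted p = 0.000407, SE 0.09) and 0.79 (adjusted p = 0.00335, SE 0.18). COTL1, which encodes a protein that binds the 5-lipoxygenase, fell by 0.53 (adjusted p = 0.000463, SE 0.08). COTL1 was the highest of the pathway genes per length in DMSO at 117 RPKM, and MGST1 the highest in HSN748 at 120.3 RPKM.

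Of 4 prostanoid receptor genes tested, 3 rose and 1 fell, with a median of 1.40 and a summed level of 20.3 to 22.6 CPM in DMSO and 81.7 to 84.1 CPM in HSN748. PTGER4, a prostaglandin E receptor, made up nearly all of this sum, with 19.2, 18.2 and 17.2 CPM in DMSO and 77.0, 76.1 and 78.3 CPM in HSN748. Its log2 fold change was 2.09 (adjusted p = 7.50e-08, SE 0.08). PTGFR, the prostaglandin F receptor, had 1, 5 and 2 counts in DMSO and 158, 127 and 145 counts in HSN748. It rose from the detection limit, with a log2 fold change of 5.75 (adjusted p = 1.74e-06, SE 0.38) whose size depends on those few DMSO counts. PTGIR, the prostacyclin receptor, rose by 0.70 (adjusted p = 0.0274, SE 0.24), a call lost under 4 of 14 alternatives. TBXA2R, the thromboxane receptor, was the one that fell, from 1.96, 1.68 and 2.21 CPM in DMSO to 0.607, 0.664 and 0.828 CPM in HSN748, a log2 fold change of -1.46 (adjusted p = 0.000321, SE 0.22). The thromboxane synthase and its receptor thus moved in opposite directions.

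Of 4 leukotriene and lipoxin receptor genes tested, 2 rose, 1 fell and 1 did not pass, with a median of 0.43. CYSLTR1, a receptor for the cysteinyl leukotrienes, stood at 37.1, 41.4 and 36.2 CPM in DMSO and 84.5, 72.6 and 74.1 CPM in HSN748, a log2 fold change of 1.01 (adjusted p = 1.11e-05, SE 0.09). OXER1, a receptor for oxidised products of the 5-lipoxygenase, rose by 1.38 (adjusted p = 0.00145, SE 0.27). LTB4R, a receptor for leukotriene B, fell by 0.30 (adjusted p = 0.0243, SE 0.10), a call lost under 6 of 14 alternatives. Its deposited model overlaps that of LTB4R2, for which the log2 fold change was -0.15 (adjusted p = 0.36, SE 0.14). Both models also lay on another scaffold, so their counts are uncertain where reads were shared with that copy.

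Of the transporter genes, ABCC1, which exports leukotriene C, rose by 0.76 (adjusted p = 0.000223, SE 0.11). Its deposited model also lay on another scaffold, so its counts are uncertain where reads were shared with that copy. ABCC4, which exports prostanoids, fell by 0.27 (adjusted p = 0.00786, SE 0.07), a call lost under 3 of 14 alternatives. Both genes of epoxide and omega hydroxylation rose, CYP2C8 by 1.67 (adjusted p = 5.84e-05, SE 0.19) and EPHX1 by 0.57 (adjusted p = 0.00196, SE 0.12). CYP2C8 is an epoxygenase with close paralogs, so its counts are uncertain, and EPHX1 is an epoxide hydrolase. Of 3 inactivation genes, ZADH2, a prostaglandin reductase, rose by 0.31 (adjusted p = 0.00289, SE 0.07). The other two, PTGR1 and PTGR2, did not pass, with log2 fold changes of 0.79 (adjusted p = 0.104, SE 0.40) and -0.32 (adjusted p = 0.0914, SE 0.15).

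**Figure D3:**
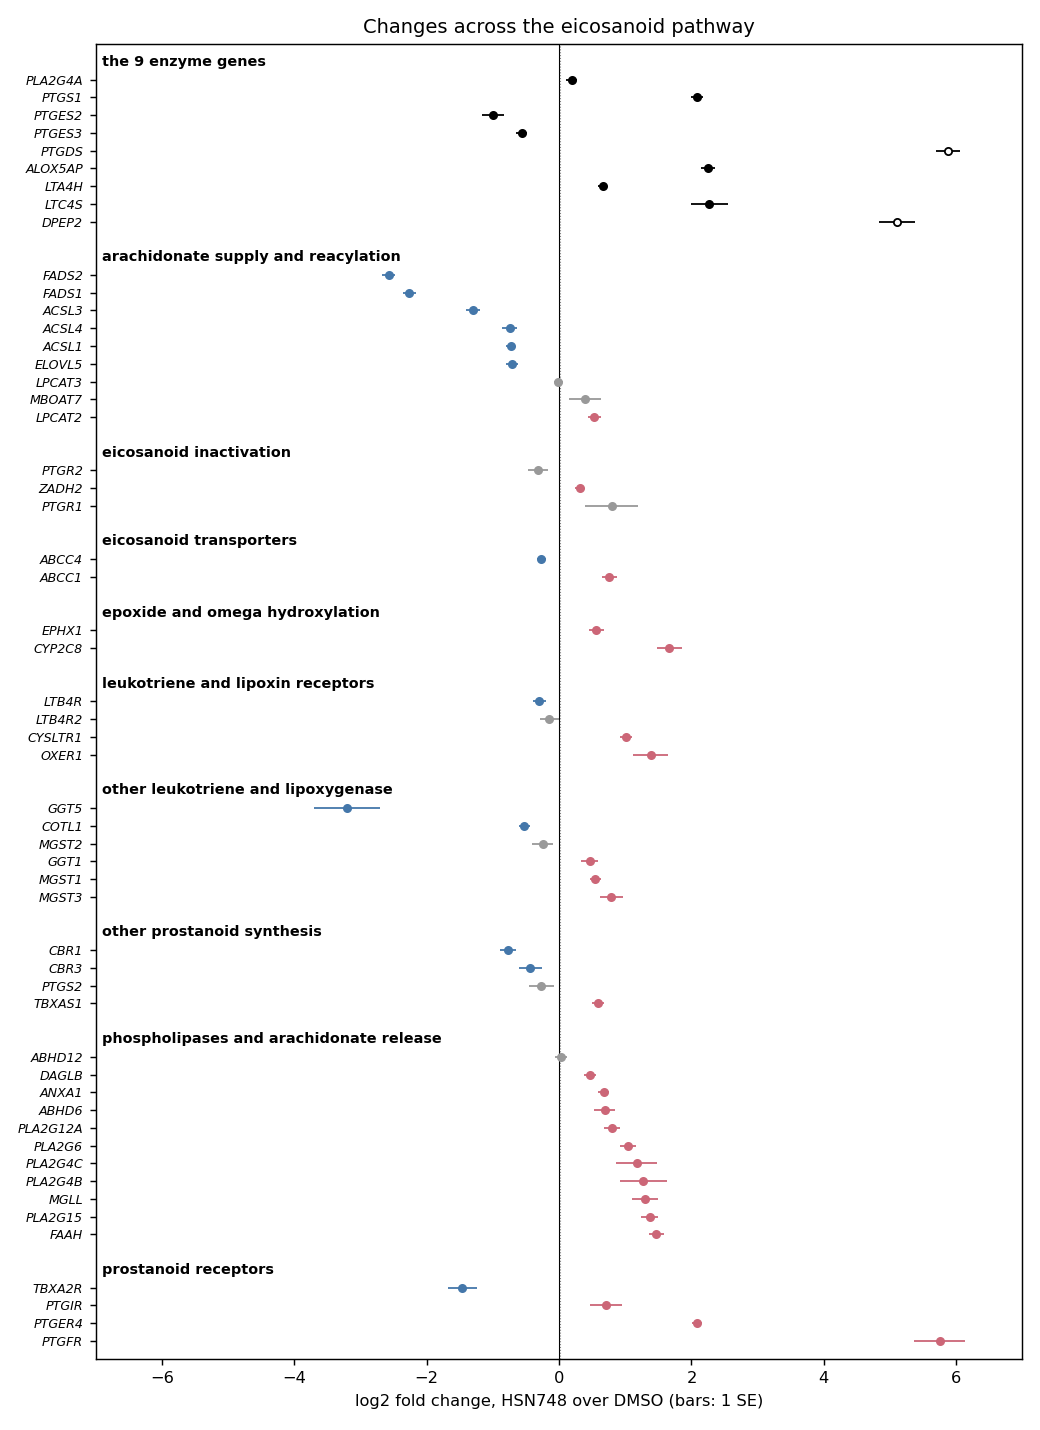
Log2 fold change of HSN748 over DMSO with bars of 1 SE for the 9 enzyme genes (black, with PTGDS and DPEP2 open because they were chosen on this change) and 45 pathway genes (red higher, blue lower, grey not passed). Release genes lie to the right, with FAAH at 1.47, and supply genes mostly to the left, with FADS2 at -2.57.

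Leukotriene C synthase is also known from mast cells and other blood cells, so markers of other cell types were examined beside the enzyme genes. Of 7 mast cell markers only TPSB2 was in the table, at 2, 1 and 1 counts in DMSO and 21, 25 and 41 counts in HSN748, and the other 6 were not analysed here. It rose (adjusted p = 4.42e-05), and its part in the higher levels of PTGDS, LTC4S and DPEP2 was not tested. Of 6 eosinophil and basophil markers PRG2 was in the table, at 0.472 to 0.717 CPM in DMSO and 0.797 to 0.910 CPM in HSN748, and did not pass. Of 7 platelet markers ITGB3 was in the table, at 1.21 to 1.61 CPM in DMSO and 1.20 to 1.40 CPM in HSN748, and did not pass. Lymphocyte markers CD79A and NKG7, 2 of 6 listed, summed to 8.97 to 13.2 CPM in DMSO and 17.6 to 21.6 CPM in HSN748 and both rose. Of 6 epithelial and erythroid markers KRT8 and KRT18 were in the table and summed to 5.52 to 7.20 CPM in DMSO and 7.92 to 10.2 CPM in HSN748, of which KRT8 rose and KRT18 did not pass. Of all tested genes, 36.6% rose and 36.5% fell, and the part of these markers in the results was not tested.

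Under the other scalings, tests and filters and with each library left out in turn, all 9 enzyme genes kept the direction of their change. The scalings moved the 9 genes together, and leaving out 1 library moved DPEP2 most.

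**Figure D4:**
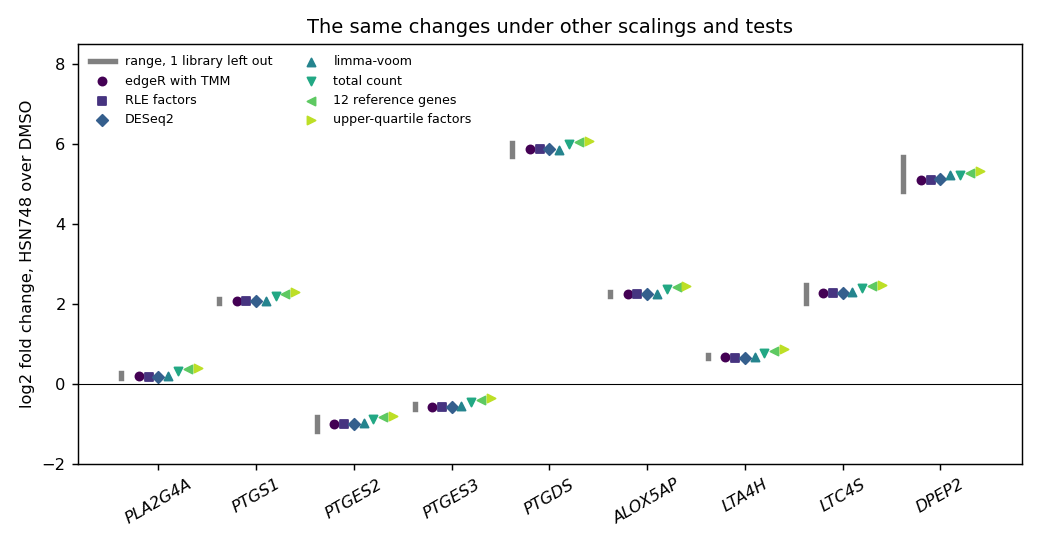
Log2 fold changes of the 9 genes under edgeR with TMM, 6 other scalings or tests (symbols) and with 1 library left out (grey bars, lowest to highest). PTGES2 and PTGES3 stayed below 0 and the other 7 genes above it, with PLA2G4A from 0.14 to 0.40. PLA2G4A lay nearest to 0 except under upper-quartile factors, where PTGES3 stood at -0.36.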

How the data were processed

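RNA-Seq libraries were made from total RNA of MOLM14 cultures extracted with TRIzol, using a low-input kit. Per the submitters' processing notes, bcl2fastq and STAR were used. The counting program, use of strand, genome build, annotation, gene filter and versions were not given in the sources used here. Whole-number counts of 13244 genes, with positions and gene lengths, were deposited and used unchanged. Columns with the authors' own fold changes, p-values, FDR and log values were not used. Of 12794 symbols in RefSeq GRCh38.p14, 9003 had the same start.

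The enzyme genes, pathway lists and markers were chosen with earlier results of these data known. Counts were filtered with filterByExpr (160 genes removed), scaled with TMM (factors 0.9455 to 1.067) and tested with the quasi-likelihood F test of edgeR 4.0.16 in R 4.3.3 (treatment as the only term, Benjamini-Hochberg adjustment over 13084 genes). The study's methods state a 2-tailed Student's test for its RNA-Seq figure, and the count test was used here because the values are counts. The biological coefficient of variation was 11.2%. Genes named were all found members, up to 4 genes with the smallest adjusted p in each pathway list, genes passing against their list's direction, the highest pathway gene per length in each group and overlapping genes. PTGS2, PTGR1, PTGR2 and LTB4R2 fall within the smallest p-values of short lists. Alternatives were RLE and upper-quartile factors, total count, 12 reference genes, DESeq2 1.42.0, limma-voom (limma 3.58.1), no filter, at least 1 CPM in 3 libraries, a log2 fold change beyond 1 and leaving out each library. Figures used Python 3.11.15, pandas 2.3.3 and matplotlib 3.10.9.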

Additional observations from a re-analysis of the deposited data

How the results depend on the processing

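All alternatives were those listed in the processing section. Apart from PLA2G4A, the genes chosen by function kept their direction and call under all 14 alternatives of scaling, test, filter and left-out library, with largest adjusted p-values of 0.00513 for PTGES2 and 0.00426 for PTGES3. PLA2G4A passed with upper-quartile factors (0.40, adjusted p = 0.00145), total count (0.32, adjusted p = 0.00764), 12 reference genes (0.37, adjusted p = 0.00415), at least 1 CPM in 3 libraries (0.23, adjusted p = 0.026) and without DMSO replicate 2 (0.26, adjusted p = 0.00764), and its adjusted p ranged from 0.00145 to 0.165. With a log2 fold change beyond 1, the enzyme genes called lower went from 2 to 0, the pathway genes called higher from 24 to 11 and those called lower from 13 to 5, since this threshold drops smaller changes. Of 37 pathway genes called, 29 were called under each of the 14 alternatives, 4 lost the call under at least 1, and the other 4 (PLA2G4B, PLA2G4C, OXER1 and GGT5) were removed by the filter of 1 CPM in 3 libraries and called under the remaining alternatives. Over all genes the median change was 0.01 with TMM, 0.21 with upper-quartile factors, 0.13 with total count and 0.18 with 12 reference genes. The split of 4793 genes higher and 4770 lower became 5952 and 3703 with upper-quartile factors. PTGDS and DPEP2 rested on DMSO counts of 6 to 32 per library, which limits the precision of their folds. No paired analysis was possible because the groups share no replicate numbers.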
